A study of Homo sapiens with 9 samples.

Results

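The genes described here are 42 genes that license replication origins, build and run the replication fork and supply its nucleotides. They were taken by symbol from a given list, and all 42 were found among the 27407 features of the deposited table. RNA was sequenced from Weri-RB1/CRP, which the labels give as a retinoblastoma cell line resistant to carboplatin, a platinum drug that damages DNA. There were 3 libraries in each of 3 groups: cells with the control hairpin shNC, and cells with shSNHG1#1 or shSNHG1#2, which were designed to lower the long noncoding RNA SNHG1. All groups share the resistant line and the same growth in RPMI 1640 medium with fetal bovine serum. Carboplatin exposure is not part of any library's labels, and no parental line or cells without a hairpin were analysed here. The target of the hairpins, SNHG1, was not analysed here, so the knockdown itself was not checked, and the comparisons below are between libraries by their hairpin labels.

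A replication origin is licensed when the origin recognition complex (ORC), CDC6 and CDT1 load the ring-shaped MCM2-7 helicase onto DNA, and geminin (GMNN) holds CDT1 in check after S phase begins. The kinase CDC7 with its partner DBF4, together with MCM10, CDC45 and the GINS complex, turns the loaded ring into a moving helicase. Behind it polymerases alpha, delta and epsilon copy the strands, and PCNA is the sliding clamp of the fork. Many of these genes are targets of E2F transcription factors, which the retinoblastoma protein RB1 restrains, and retinoblastoma is the tumour in which that restraint is classically lost.

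The libraries held 21502093 to 21606498 estimated counts each. A single unnamed feature took 6.57% to 7.09% of the counts in the shNC libraries, 12.2% to 13.5% with shSNHG1#1 and 11.8% to 12.1% with shSNHG1#2. The labelled cell type was checked against its markers: 12 of 14 photoreceptor and retinoblastoma markers were below 1 FPKM (fragments per kilobase of transcript, scaled by library size) in every library, among them the photoreceptor factor CRX at no more than 0.03, whereas the epithelial keratin KRT8 stood at 783 ± 2.48 FPKM (mean ± SD, n = 3) in shNC. The remaining photoreceptor and retinoblastoma markers reached 1 FPKM in some library, and the 14 summed to 20.4 to 22.1 FPKM in shNC. The 11 epithelial markers summed to 2392 to 2411 FPKM in shNC, although 2 of them were below 1 FPKM in every library. Most markers therefore go against the label, and the cells are called here by their label only. Summed over 12 markers of blood, endothelium, stroma, liver and red cells, levels were 5.08 to 5.32 FPKM in shNC, 4.65 to 6.31 with shSNHG1#2 and 5.76 to 36.7 with shSNHG1#1, where replicate 1 was the high library. Without that library, 37 and 1 members passed as higher and lower with shSNHG1#1 in the comparison below, all of which passed with it as well. The labels do not say that the replicates were separate cultures, so each p-value speaks only of the spread among these samples, which may be technical.

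With shSNHG1#1, 37 of the 42 genes were higher than in shNC, 1 was lower and 4 did not pass (edgeR quasi-likelihood test, Benjamini-Hochberg adjusted p below 0.05). Of all 18767 features tested, 24.5% were called higher and 23.5% lower in that comparison. The median log2 fold change of the 42 genes was 0.60, against 0.02 over all features tested. In 37 of the 42 genes, the same ones that were called higher, every shSNHG1#1 library lay above every shNC library in normalised counts, which held for 29.0% of all features. At least 2-fold higher were 8 members, MCM4, MCM6, MCM10, GINS2, CDC45, FEN1, RRM2 and POLA2, against 3.51% of all features.

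With shSNHG1#2, 36 of the 42 genes were higher than in shNC, 0 were lower and 6 did not pass, where the shares over all features were 23.3% higher and 22.8% lower. The median log2 fold change was 0.60 against 0.01 over all features. Every shSNHG1#2 library lay above every shNC library in 36 members and in 28.3% of all features. At least 2-fold higher were 7 members, MCM4, MCM6, MCM10, GINS2, CDC45, FEN1 and CDC6, against 2.99% of all features. Both comparisons use the same 3 shNC libraries, so their results are not independent of each other.

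**Figure D1:**
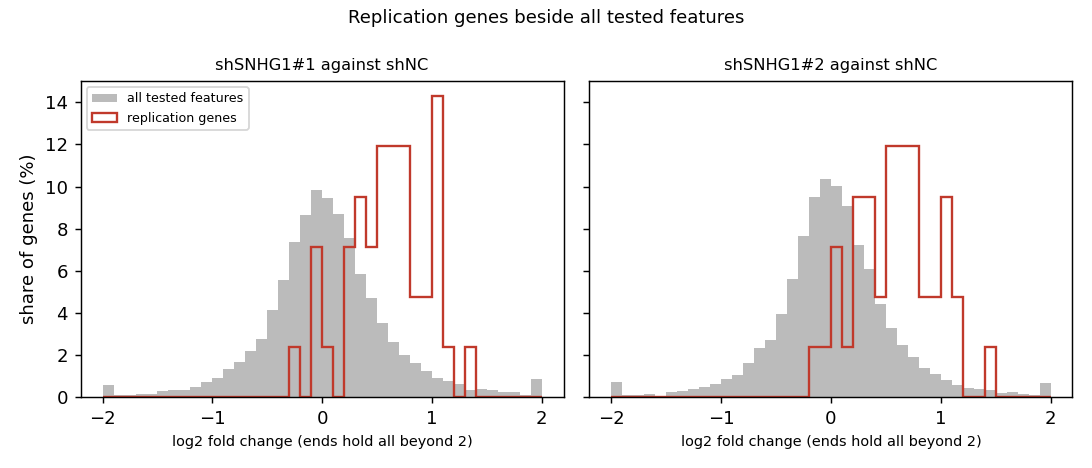
Distribution of log2 fold changes against shNC for all 18767 tested features (grey) and for the 42 replication genes (red outline), as a share of each set in percent; the end bins hold all values beyond 2. The grey distributions centre at 0.02 and 0.01, while the replication genes centre at 0.60 in each panel with a few members near 0.

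These values rest on scaling by TMM, which assumes that most features do not change. With library totals taken without the unnamed top feature, the median of all features moved to 0.17 with shSNHG1#1 and 0.16 with shSNHG1#2, and that of the replication genes to 0.75 in each comparison. The share of called features that were higher moved with it, from 51.0% to 70.7% with shSNHG1#1 and from 50.5% to 72.6% with shSNHG1#2. With plain library totals that share was 57.9% and 60.9%. Such a scaling shifts all features of a library alike, so the distance between the medians, 0.58 with shSNHG1#1 and 0.59 with shSNHG1#2, does not depend on it.

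**Figure D2:**
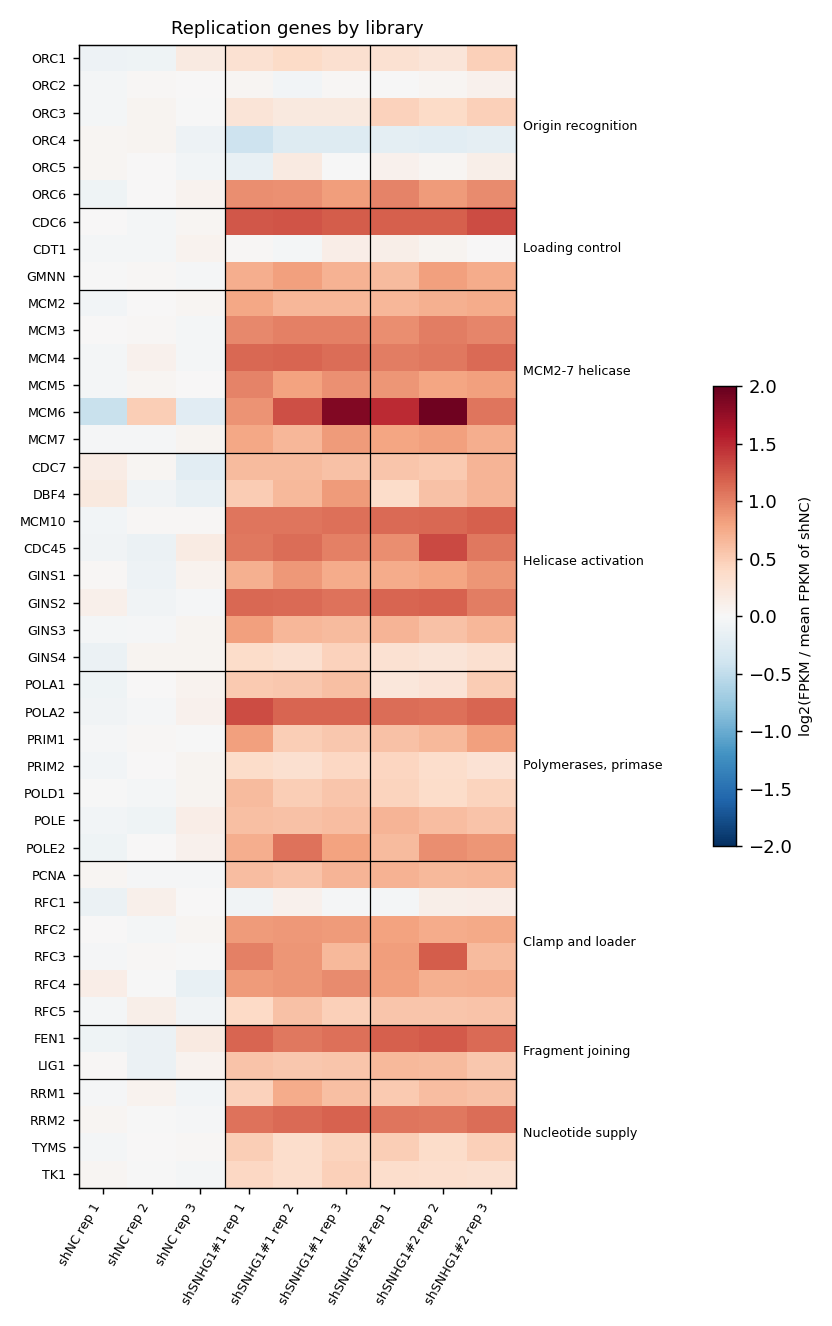
Level of each replication gene in each of the 9 libraries as log2 of its FPKM over the mean FPKM of the shNC libraries (colour, from -2 to 2), with rows grouped by role and lines between groups. Most rows are red in all 6 hairpin libraries, the rows of ORC2, ORC5, CDT1 and RFC1 stay pale, and ORC4 is blue; MCM6 is the row that varies most between replicates.

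ORC had the lowest median change of the role groups. Of its 6 genes, 3 were higher with each hairpin (ORC1, ORC3 and ORC6), and the median log2 fold change was 0.09 with shSNHG1#1 and 0.15 with shSNHG1#2. ORC6 (gene ID 23594), the smallest subunit, was at 5.16, 5.51 and 5.71 FPKM in shNC, at 10.4, 10.3 and 9.71 with shSNHG1#1 and at 10.8, 9.80 and 10.5 with shSNHG1#2. All 6 hairpin libraries were above all 3 control libraries. Its log2 fold change was 0.85 ± 0.07 (SE) with shSNHG1#1 (edgeR adjusted p = 3.22e-06) and 0.89 ± 0.07 with shSNHG1#2 (edgeR adjusted p = 2.70e-06).

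ORC4 (gene ID 5000), an ATPase-fold subunit of the ring, was the only member called lower in any comparison. It stood at 22.4, 22.6 and 20.4 FPKM in shNC, at 16.3, 18.3 and 18.3 with shSNHG1#1 and at 19.1, 18.8 and 19.3 with shSNHG1#2. In FPKM the control libraries were above all hairpin libraries. It fell by 0.23 ± 0.06 on the log2 scale with shSNHG1#1 (edgeR adjusted p = 7.36e-03), while its log2 difference with shSNHG1#2 was -0.14 ± 0.06 (edgeR adjusted p = 0.0704), where normalised counts overlapped. The call with shSNHG1#1 ended when library totals without the top unnamed feature were used (-0.09, adjusted p = 0.215), and the call with shSNHG1#2 was made without shNC replicate 3 (-0.21, adjusted p = 0.0122), by DESeq2 and by limma on FPKM.

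ORC2 (gene ID 4999), a core subunit, was at 14.8, 15.4 and 15.3 FPKM in shNC, at 15.5, 14.6 and 15.4 with shSNHG1#1 and at 15.1, 15.5 and 16 with shSNHG1#2. ORC5 (gene ID 5001), a neighbouring subunit, was at 13.0, 12.8 and 12.2 FPKM in shNC, at 11.4, 14.3 and 12.6 with shSNHG1#1 and at 13.4, 13.0 and 13.8 with shSNHG1#2. The groups overlapped for both genes. The 95% intervals of the log2 fold change ran from -0.10 to 0.05 and from -0.12 to 0.04 for ORC2, and from -0.19 to 0.15 and from -0.15 to 0.19 for ORC5. The other subunits that passed moved less than ORC6: ORC1, the large ATPase that recognises origins, by 0.31 and 0.28, and ORC3, another core subunit, by 0.20 and 0.37.

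In FPKM, which allows levels of different genes to be compared, ORC was therefore less unequal with the hairpins. ORC1 was the lowest and ORC4 the highest subunit in all 9 libraries, 4.91 to 6.55 times apart in shNC, 3.56 to 4.0 times with shSNHG1#1 and 3.76 to 4.34 times with shSNHG1#2. The ratio of ORC6 to ORC2 was 0.360 on average in shNC and 0.669 with each hairpin, and the groups did not overlap. An exact permutation test of 3 against 3 libraries gave p = 0.1, two-sided, which is the smallest it can give, and the same holds for the other ratios below.

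**Figure D3:**
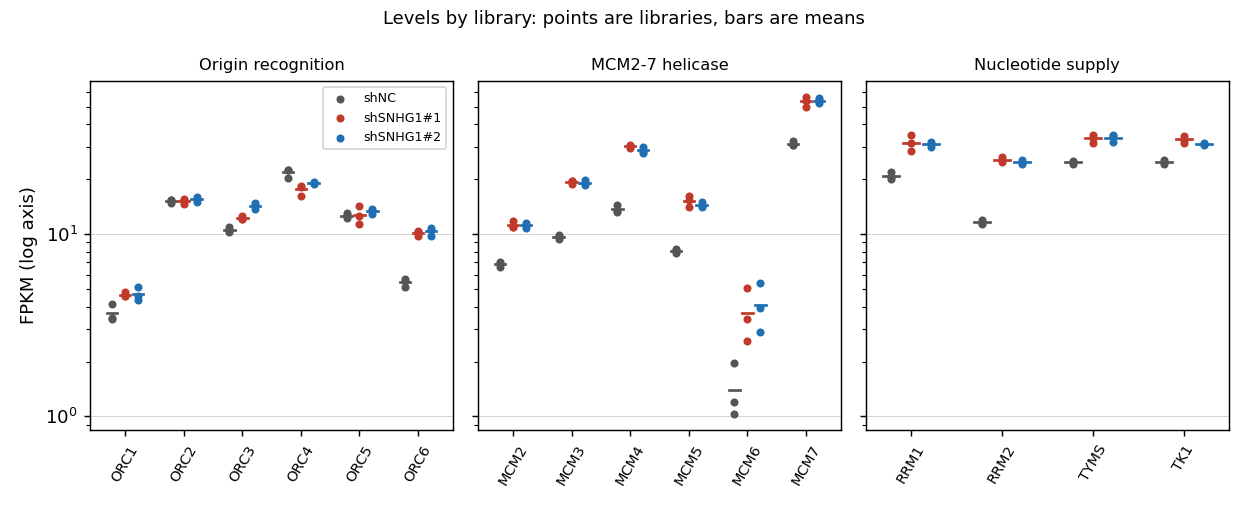
FPKM on a log axis of each gene of ORC, of the MCM2-7 helicase and of the nucleotide supply, with 1 point per library and a bar at the mean of the 3 libraries of shNC (grey), shSNHG1#1 (red) and shSNHG1#2 (blue). The MCM2-7 genes are higher in all 6 hairpin libraries, from MCM6 at 1.03 to 1.96 FPKM in shNC up to MCM7 at 30.8 to 32.5, whereas ORC2 and ORC5 overlap between groups.

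The loading factors split. CDC6 (gene ID 990), the ATPase that joins ORC to load the helicase, was at 5.59, 5.41 and 5.75 FPKM in shNC, at 13.3, 13.4 and 13.0 with shSNHG1#1 and at 12.8, 12.8 and 13.8 with shSNHG1#2. All hairpin libraries were above the controls, with log2 fold changes of 0.99 ± 0.05 (edgeR adjusted p = 2.95e-08) and 1.00 ± 0.05 (edgeR adjusted p = 3.56e-08). CDT1 (gene ID 81620), which brings MCM2-7 to the origin, was at 13.1, 13.2 and 14.1 FPKM in shNC, at 13.7, 13.1 and 14.8 with shSNHG1#1 and at 14.6, 14.1 and 13.6 with shSNHG1#2. Its groups overlapped, and the 95% interval of its log2 fold change was -0.09 to 0.14 with shSNHG1#1 and -0.10 to 0.14 with shSNHG1#2. With library totals without the top unnamed feature, CDT1 was called higher with each hairpin (0.17 in each), as was ORC2 (0.12 and 0.11).

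GMNN, the inhibitor of CDT1, was higher by 0.63 and 0.60 on the log2 scale, from 9.93 ± 0.20 FPKM in shNC to 16.7 ± 0.79 and 16.5 ± 1.05 (SD, n = 3). The ratio of GMNN to CDT1 was 0.689 to 0.771 in the shNC libraries. It was 1.09 to 1.35 with shSNHG1#1 and 1.06 to 1.25 with shSNHG1#2, so that GMNN was the lower of the pair in every control library and the higher in every hairpin library.

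All 6 genes of the MCM2-7 helicase were higher with each hairpin, with a median log2 fold change of 0.85 with shSNHG1#1 and 0.80 with shSNHG1#2. MCM6 (gene ID 4175), a core subunit of the ring, was at 1.03, 1.96 and 1.2 FPKM in shNC, at 2.60, 3.43 and 5.04 with shSNHG1#1 and at 3.93, 5.40 and 2.92 with shSNHG1#2. All hairpin libraries were above the controls, but replicates of 1 group differed by up to 1.94 times. Its log2 fold changes were the largest and the least precise of the members, 1.37 ± 0.31 (edgeR adjusted p = 3.61e-03) and 1.49 ± 0.31 (edgeR adjusted p = 2.15e-03), with as few as 84 counts in a control library.

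MCM2 (gene ID 4171), the subunit with the smallest change of the ring, was at 6.59, 6.92 and 7.07 FPKM in shNC, at 11.8, 10.9 and 10.9 with shSNHG1#1 and at 10.8, 11.2 and 11.5 with shSNHG1#2. All hairpin libraries were again above the controls. Its log2 fold changes were 0.66 ± 0.05 (edgeR adjusted p = 9.93e-07) and 0.64 ± 0.05 (edgeR adjusted p = 1.49e-06). MCM4 moved by 1.14 and 1.06, MCM3 by 0.93 and 0.90, MCM5 by 0.78 and 0.67 and MCM7 by 0.70 and 0.71. The 6 subunits form a ring with 1 copy of each, but their transcripts were not equal: MCM7 exceeded MCM6 by 15.7 to 30.1 times in the shNC libraries, by 11.2 to 20.8 times with shSNHG1#1 and by 10.3 to 17.9 times with shSNHG1#2. These ratios rest on MCM6, whose replicates were up to 1.94 times apart. The other subunits lay closer together, with means in shNC from 6.86 FPKM (MCM2) to 31.4 (MCM7). The summed FPKM of the 6 genes was 71.2 ± 1.42 in shNC, 133 ± 4.17 with shSNHG1#1 and 132 ± 2.43 with shSNHG1#2 (SD, n = 3).

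The promoter of MCM6 shows the kind of sequence known in genes of this pathway. RefSeq promoters (GRCh38.p14) of 250 bases before and 50 after the start were matched for 39 of the 42 genes, and, as the sources used here do not give the genome build behind the deposited counts, these sequences belong to RefSeq and not to the study. MCM4, MCM5 and GINS4 were not matched, so their promoters were not searched. The words searched as E2F sites were TTTCCCGC, TTTCGCGC, TTTGCCGC and TTTGGCGC on both strands; words on opposite strands can overlap, and each place was counted once. MCM6 held 4 such places in 2 overlapping pairs, first bases at -152 and -148 and at -90 and -86 from the start, in capitals below; the stretch is chr2:135876444-135876693 on the minus strand.
MCM6: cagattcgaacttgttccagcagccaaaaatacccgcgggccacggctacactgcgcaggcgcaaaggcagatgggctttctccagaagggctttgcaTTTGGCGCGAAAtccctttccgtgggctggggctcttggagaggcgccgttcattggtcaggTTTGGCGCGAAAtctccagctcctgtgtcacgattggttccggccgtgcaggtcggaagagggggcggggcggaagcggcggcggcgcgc

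Short windows around the E2F words of MCM2, MCM3 and MCM7 are set beside it, chosen after their values were seen, to show the same words in other subunits of the ring. Capitals mark the words, which start at 3 (overlapping a second copy on the other strand) in MCM2, at -174 and -4 in MCM3 and at -187 and -9 in MCM7. The windows lie at chr3:127598405-127598432 (plus strand), chr6:52284901-52284924 and chr6:52284731-52284754 (minus strand), and chr7:100101569-100101592 and chr7:100101391-100101414 (minus strand).
MCM2: gaaccactTTTCGCGCGAAAcctggttg
MCM3 upstream: atggtacgTTTCCCGCcaccgcgg
MCM3 at the start: tcggaagtTTTCGCGCcggggtgg
MCM7 upstream: ctcggaccGCGGGAAAcccggcgc
MCM7 at the start: gggcgacgTTTCGCGCcaatttcg

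An E2F word was present in 18 of the 39 matched promoters (46.2%), in 3.33% of all 27305 RefSeq promoters of the same length and in 4.93% of the 13372 promoters of tested genes. CCAAT, bound by NF-Y, was present in 51.3% of the members, 35.7% of all promoters and 36.0% of those of tested genes. The GC box GGGCGG was present in 66.7% of the members and in 44.6% and 65.1%. TTTGAA or TTCGAA, the words of the cell cycle homology region of late cell cycle genes, were present in 7.69% of the members and in 16.6% and 12.1%. A match is a description of letters and not a bound site.

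Having such a word and moving strongly did not go together in every gene. CDT1, whose log2 fold changes were 0.03 and 0.02, held an E2F word at -35, whereas FEN1 and MCM10, which were over 2-fold higher with each hairpin, held none in this window. The median log2 fold change of the 18 members with a word was 0.68 with shSNHG1#1 and 0.67 with shSNHG1#2, and that of the 21 without was 0.58 and 0.50, given as a description with no test. Gaps were also seen for the other words, not all in the same direction. With CCAAT the medians were 0.65 and 0.69, and without it 0.54 and 0.52. With the GC box they were 0.58 and 0.56, and without it 0.77 in each. For the cell cycle homology region, with 3 members, they were 0.58 and 0.50, and without it 0.60 in each. The stretches of MCM10, a strongly moved member, and of ORC2 and ORC4, which had the lowest signed mean changes among members with a RefSeq entry, are shown for contrast, cut to the bases outside annotated exons: chr10:13161308-13161553 (plus strand), chr2:200963681-200963910 and chr2:148021685-148021755 (both minus strand). The window of FEN1 lies wholly within annotated exons and is not shown.
MCM10: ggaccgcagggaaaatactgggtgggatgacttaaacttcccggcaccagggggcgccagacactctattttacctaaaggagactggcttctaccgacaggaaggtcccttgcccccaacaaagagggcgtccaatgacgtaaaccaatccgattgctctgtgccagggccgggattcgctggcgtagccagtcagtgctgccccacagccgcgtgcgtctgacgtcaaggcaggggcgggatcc
ORC2: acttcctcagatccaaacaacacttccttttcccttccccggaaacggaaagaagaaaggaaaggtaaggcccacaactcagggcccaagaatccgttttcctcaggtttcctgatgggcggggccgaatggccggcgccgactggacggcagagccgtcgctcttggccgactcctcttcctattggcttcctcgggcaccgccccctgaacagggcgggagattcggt
ORC4: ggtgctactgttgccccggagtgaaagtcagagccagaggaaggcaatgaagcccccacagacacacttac

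Of the 8 genes that turn the loaded ring into an active helicase, 8 were higher with shSNHG1#1 and 7 with shSNHG1#2. MCM10 (gene ID 55388), which acts at the last step of activation, was at 2.72, 2.88 and 2.87 FPKM in shNC, at 5.94, 5.94 and 6.07 with shSNHG1#1 and at 6.18, 6.25 and 6.44 with shSNHG1#2. Replicates lay close together and the hairpin libraries were all above the controls. Its log2 fold changes were 1.06 ± 0.05 (edgeR adjusted p = 4.90e-08) and 1.11 ± 0.05 (edgeR adjusted p = 4.71e-08).

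GINS is a complex of 4 proteins that holds CDC45 to MCM2-7, and its genes moved by different amounts: GINS2 by 1.08 and 1.06 on the log2 scale, GINS1 by 0.72 in each comparison, GINS3 by 0.66 and 0.58 and GINS4 by 0.27 and 0.18. GINS4 (gene ID 84296) was at 4.46, 5.04 and 5.05 FPKM in shNC, at 6.25, 6.06 and 6.67 with shSNHG1#1 and at 5.98, 5.83 and 6.04 with shSNHG1#2. In FPKM the hairpin libraries were above the controls, while in normalised counts those of shSNHG1#2 overlapped them. GINS4 passed with shSNHG1#1 (0.27 ± 0.08, edgeR adjusted p = 0.0119) and not with shSNHG1#2 (0.18 ± 0.08, edgeR adjusted p = 0.0817). The first call was lost without shNC replicate 1 (adjusted p = 0.0576) or shSNHG1#1 replicate 3 (adjusted p = 0.0548), and the second was made without shSNHG1#2 replicate 2 (adjusted p = 0.0237), with plain library totals (adjusted p = 0.0262), with totals without the top unnamed feature (adjusted p = 4.64e-03) and with limma on FPKM (adjusted p = 7.21e-03 and 8.39e-03).

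CDC45, the third part of the active helicase, moved by 1.04 and 1.06, from 3.36 ± 0.37 FPKM in shNC to 7.02 ± 0.25 and 7.28 ± 1.03 (SD, n = 3). The kinase gene CDC7 moved by 0.60 and 0.56 and DBF4, its activating subunit, by 0.54 and 0.50. These were smaller log2 changes than those of CDC45, GINS1, GINS2 and GINS3 in the same libraries, but larger than those of GINS4 (0.27 and 0.18).

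All 7 genes of the replicative polymerases and primase were higher with each hairpin, with medians of 0.53 on the log2 scale in each comparison. POLA2 (gene ID 23649), the regulatory subunit of polymerase alpha, was at 4.95, 5.11 and 5.51 FPKM in shNC, at 12.9, 11.7 and 11.6 with shSNHG1#1 and at 11.2, 11.1 and 11.7 with shSNHG1#2. All hairpin libraries were above all controls, with a wide gap between them. Its log2 fold changes were 1.03 ± 0.05 (edgeR adjusted p = 3.92e-08) and 0.94 ± 0.05 (edgeR adjusted p = 1.05e-07).

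POLA1 (gene ID 5422), the catalytic subunit of the same polymerase, was at 6.47, 6.87 and 7.23 FPKM in shNC, at 9.85, 9.97 and 10.5 with shSNHG1#1 and at 8.04, 8.27 and 9.71 with shSNHG1#2. Its hairpin libraries were also all above the controls. The log2 fold changes by counts were 0.29 ± 0.06 (edgeR adjusted p = 2.19e-03) and 0.24 ± 0.06 (edgeR adjusted p = 8.33e-03), the smallest of the 7. Between POLA2 and POLA1 stood POLE2, an accessory subunit of polymerase epsilon, at 0.85 and 0.80, the primase catalytic gene PRIM1 at 0.60 and 0.62, the leading-strand polymerase gene POLE at 0.53 in each, the lagging-strand polymerase gene POLD1 at 0.47 and 0.38 and the large primase gene PRIM2 at 0.38 and 0.31.

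**Figure D4:**
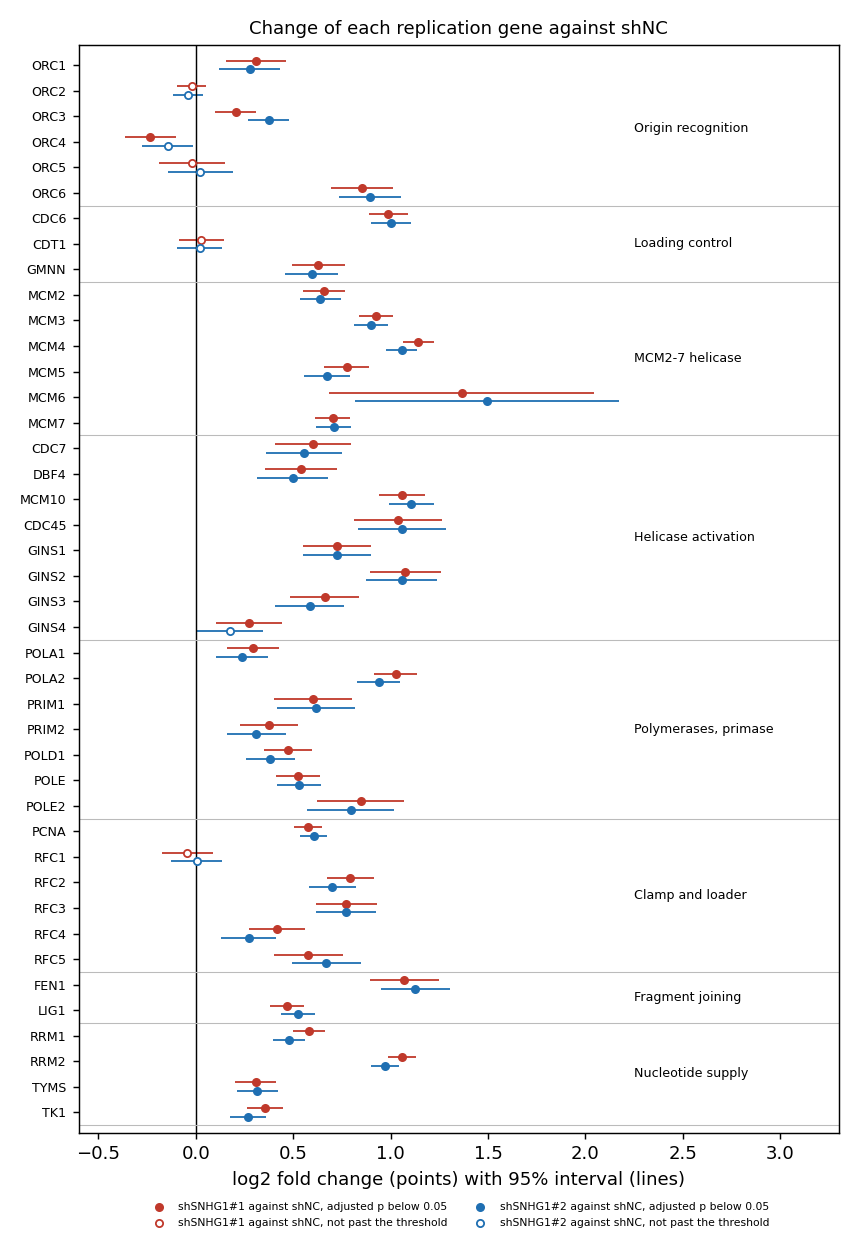
Log2 fold change of each replication gene against shNC by edgeR, with its 95% interval, for shSNHG1#1 (red) and shSNHG1#2 (blue); filled points passed an adjusted p below 0.05 and open points did not. Intervals of ORC2, ORC5, CDT1 and RFC1 include 0 with each hairpin, and the widest intervals are those of MCM6.

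PCNA, the sliding clamp, had the highest level of all 42 genes, at 139 ± 3.19 FPKM in shNC, 214 ± 8.26 with shSNHG1#1 and 221 ± 3.63 with shSNHG1#2 (SD, n = 3), which are log2 fold changes of 0.58 and 0.60. Of the 5 genes of RFC, the complex that opens the clamp and loads it on DNA, 4 were higher with each hairpin. RFC3 (gene ID 5983), a small subunit, was at 6.04, 6.23 and 6.13 FPKM in shNC, at 12.3, 11.3 and 9.65 with shSNHG1#1 and at 10.9, 14.2 and 9.51 with shSNHG1#2. All hairpin libraries were above the controls, which lay close together, while the hairpin replicates were spread. Its log2 fold changes were 0.77 ± 0.07 in each comparison (edgeR adjusted p = 5.37e-06 and 6.35e-06).

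RFC1 (gene ID 5981), the large subunit that makes the complex specific for PCNA, was at 11.2, 13.0 and 12.2 FPKM in shNC, at 11.5, 12.9 and 11.9 with shSNHG1#1 and at 11.8, 13.2 and 13.3 with shSNHG1#2. Its groups overlapped, with 95% intervals of the log2 fold change from -0.18 to 0.09 and from -0.13 to 0.14. The small subunits RFC2 to RFC5, which other clamp loaders also use, moved by 0.27 to 0.79. RFC2 stood at 0.79 and 0.70, RFC5 at 0.58 and 0.67 and RFC4 at 0.42 and 0.27.

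The genes that join Okazaki fragments were both higher. FEN1 (gene ID 2237), the nuclease that removes flaps, was at 5.82, 5.66 and 7.01 FPKM in shNC, at 13.9, 12.8 and 13.3 with shSNHG1#1 and at 14.1, 14.5 and 13.5 with shSNHG1#2. LIG1 (gene ID 3978), the ligase that seals the nick, was at 10.3, 9.31 and 10.6 FPKM in shNC, at 14.9, 14.5 and 14.7 with shSNHG1#1 and at 15.8, 15.7 and 14.6 with shSNHG1#2. No hairpin library of either gene reached down to a control library. FEN1, which was the lower of the pair in shNC, had log2 fold changes of 1.07 ± 0.08 (edgeR adjusted p = 1.22e-06) and 1.13 ± 0.08 (edgeR adjusted p = 9.86e-07). Those of LIG1 were 0.47 ± 0.04 (edgeR adjusted p = 3.56e-06) and 0.52 ± 0.04 (edgeR adjusted p = 1.80e-06).

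All 4 genes of nucleotide supply were higher with each hairpin. RRM2 (gene ID 6241), the small subunit of ribonucleotide reductase that holds the radical, was at 12, 11.6 and 11.4 FPKM in shNC, at 24.9, 25.6 and 26.5 with shSNHG1#1 and at 24.6, 24.3 and 25.4 with shSNHG1#2. Controls and hairpin libraries were far apart, and the log2 fold changes were 1.06 ± 0.03 (edgeR adjusted p = 1.31e-09) and 0.97 ± 0.03 (edgeR adjusted p = 3.17e-09). RRM1, its large partner, moved by 0.58 and 0.48, and the ratio of RRM2 to RRM1 was 0.527 to 0.582 in shNC, 0.735 to 0.868 with shSNHG1#1 and 0.761 to 0.817 with shSNHG1#2.

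TYMS (gene ID 7298), which makes thymidylate, was at 24.2, 24.9 and 25.3 FPKM in shNC, at 35.0, 31.6 and 33.9 with shSNHG1#1 and at 35.0, 32.0 and 34.4 with shSNHG1#2. The groups did not overlap. Its log2 fold changes were 0.31 ± 0.05 (edgeR adjusted p = 3.04e-04) and 0.32 ± 0.05 (edgeR adjusted p = 2.75e-04). TK1, the salvage kinase of thymidine, moved by 0.35 and 0.27.

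At least 1.5-fold higher were 22 of the 42 members with shSNHG1#1, against 8.91% of all features, and 23 with shSNHG1#2, against 7.80%, and MCM2-7 was the only role group with all of its genes among them. Summed over the 42 genes, FPKM was 531 to 533 in the shNC libraries, 807 to 831 with shSNHG1#1 and 819 to 821 with shSNHG1#2. PCNA made the largest part of these sums.

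Between the hairpins no member was called. In shSNHG1#2 against shSNHG1#1, 2.00% of all features were called higher, 1.12% lower, and in 10.7% every shSNHG1#2 library lay above every shSNHG1#1 library, as did 2 of the 42 members (ORC3 and MCM10). Every shSNHG1#2 library lay below every shSNHG1#1 library in 6 members (MCM4, POLA2, RFC2, RRM1, RRM2 and TK1) and in 10.0% of all features. By edgeR 0 of 42 passed and 5 had an unadjusted p below 0.05 (ORC3, MCM4, RFC4, RRM1 and RRM2). The share of all features at that unadjusted cut is not given here, so the count is only a description. DESeq2 also called 0, and limma on log2 FPKM called ORC3, which stood at 14.3 ± 0.54 FPKM with shSNHG1#2 against 12.3 ± 0.31 with shSNHG1#1 (SD, n = 3) and had the lowest adjusted p by edgeR (0.0968). By point estimate, all 42 members and 15168 of the 18767 features tested differed by less than 1.2-fold between the hairpins. The 95% interval of the log2 difference between hairpins lay within 1.5-fold for 41 members and within 1.2-fold for 37. The exception was MCM6, with an interval from -0.50 to 0.75, so that a difference of that size in MCM6 was not detectable here.

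Changes by FPKM and by counts were not equal for every member. An implied transcript length, from count, FPKM and library total, was shorter by more than 10% with each hairpin, without overlap of groups, for RFC4 and CDC6. For RFC4 it was 3988 to 4533 bases in shNC, 2839 to 3347 with shSNHG1#1 and 3102 to 3151 with shSNHG1#2, and its mean FPKM ratio was 1.86 and 1.68 where the fold change by counts was 1.33 and 1.21. For CDC6 the length was 3632 to 3904, 3199 to 3304 and 3343 to 3360 bases, and the ratios were 2.37 and 2.35 against folds by counts of 1.98 and 2.00. POLA1 was shorter by 14.3% with shSNHG1#1 and by 2.38% with shSNHG1#2, where groups overlapped. Some lengths were longer instead. ORC4 was longer by 8.94% with shSNHG1#1, where groups overlapped, and by 8.26% with shSNHG1#2, where they did not. Its mean FPKM ratio was 0.81 and 0.88 where the fold by counts was 0.85 and 0.91, so its FPKM fell further than its counts. RFC5 was longer by 10.5% and 12.9%, with overlap of groups.

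**Figure D5:**
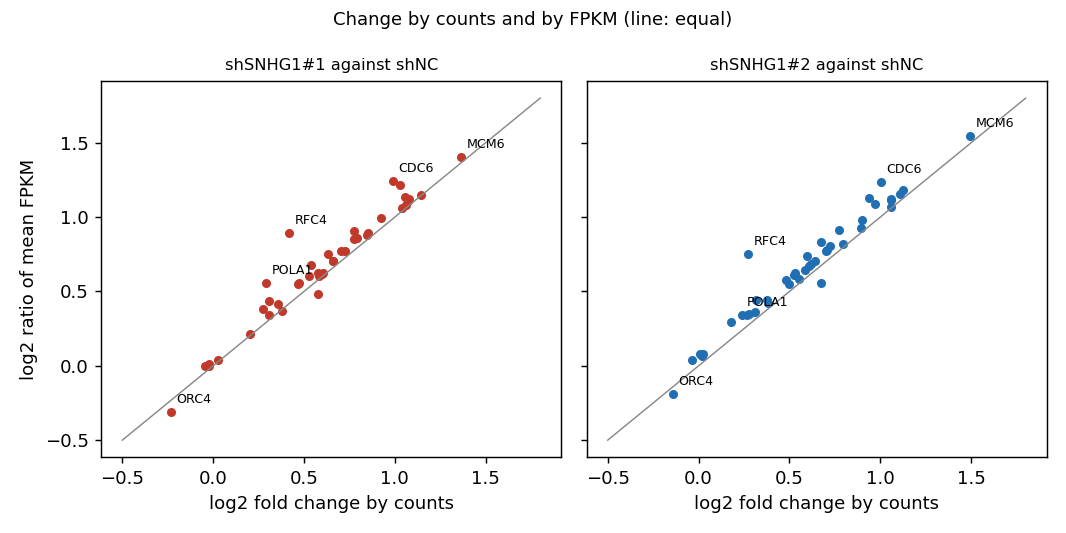
Log2 ratio of mean FPKM plotted against the log2 fold change by counts for the 42 replication genes, 1 point per gene, for each hairpin against shNC; the line marks equal values. Most points lie close to or slightly above the line, and RFC4 lies farthest above it, at an FPKM ratio of 1.86 and 1.68 against 1.33 and 1.21 by counts.

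Some members may share reads with other genes, which was not examined in the reads. In the GENCODE v29 annotation 18 of the 42 overlap an exon of another gene, such as TYMS with ENOSF1, MCM7 with AP4M1, RFC4 with EIF4A2 and ORC4 with MBD5 on opposite strands, and PRIM1 with NACA and FEN1 with FADS2 on the same strand. Whether the counting used strand is not stated in the labels or headers, so it is unknown whether reads of the opposite-strand pairs were separated. Strand would not separate those of the same-strand pairs. The values of these members are uncertain to that extent. A further uncertainty applies to 7 members with named pseudogenes (PCNA, RRM2, TYMS, DBF4, RFC3, RFC5 and FEN1).

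The wider set of fork proteins was mostly higher too, with a smaller median. Of 34 such genes, 26 were higher, 1 lower and 7 not called with shSNHG1#1 (median log2 fold change 0.40), and 23 were higher, 1 lower and 10 not called with shSNHG1#2 (median 0.37). CLSPN, a checkpoint adaptor at the fork, moved by 1.41 and 1.35, from 1.04 ± 0.10 to 2.70 ± 0.15 and 2.75 ± 0.32 FPKM (SD, n = 3), and ASF1B, a histone chaperone, by 1.09 and 0.99. RPA1, which coats single-stranded DNA, moved by 0.57 and 0.50, MCM8, a helicase of recombination repair, by 0.68 and 0.70 and TIMELESS, of the fork protection complex, by 0.55 and 0.46. RNASEH2C, a subunit of the nuclease that removes RNA from DNA, was lower with shSNHG1#1 (-0.26, edgeR adjusted p = 0.0228) and MCM9, the partner of MCM8, with shSNHG1#2 (-0.26, edgeR adjusted p = 0.0256), and neither passed with the other hairpin. These calls were lost on leaving out single libraries: that of RNASEH2C without shNC replicate 1 or without shSNHG1#1 replicate 1 or 2, and that of MCM9 without shNC replicate 3 or without shSNHG1#2 replicate 1 or 2. Neither passed with plain library totals (-0.21 and -0.20) or with totals without the top unnamed feature (-0.11 and -0.12).

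Genes that control licensing were mixed. Of 10, 6 were higher and 2 lower with shSNHG1#1, and 7 were higher and 2 lower with shSNHG1#2. For this and the other lists, the shares over all features were 24.5% higher and 23.5% lower with shSNHG1#1. With shSNHG1#2 they were 23.3% and 22.8%. CDK2, a kinase of S phase entry, moved by 0.80 and 0.75, DTL, the receptor that marks CDT1 for destruction on PCNA, by 0.64 and 0.68, and DDB1, the adaptor of the same ubiquitin ligase, by 0.25 and 0.17. KAT7, the histone acetyltransferase that works with ORC and the helicase at origins, was lower, from 26.1 ± 0.75 FPKM in shNC to 17.6 ± 0.67 and 19.4 ± 0.42 (SD, n = 3), or -0.63 (edgeR adjusted p = 8.90e-08) and -0.50 (edgeR adjusted p = 6.51e-07) on the log2 scale. CUL4A, the ligase scaffold, was lower by a small amount, at -0.17 and -0.18, a call that ended with library totals without the top unnamed feature (-0.03 and -0.04) and with limma on FPKM, whereas KAT7 still passed with those totals (-0.49 and -0.35).

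Of 14 further genes of nucleotide supply, 10 were higher and 1 lower with shSNHG1#1, and 10 were higher and 2 lower with shSNHG1#2. CAD, of pyrimidine synthesis, moved by 0.75 and 0.62, SHMT1, which supplies folate carbon units, by 0.70 and 0.60 and RRM2B, the other small subunit of ribonucleotide reductase, by 0.60 and 0.61. SAMHD1, which breaks down deoxynucleotides, was lower with each hairpin, at -0.25 and -0.19, and DCTD, a deaminase of pyrimidine nucleotides, with shSNHG1#2, at -0.15. With library totals without the top unnamed feature neither passed, at -0.10 and -0.04 for SAMHD1 and at -0.004 for DCTD with shSNHG1#2. The DCTD call was also lost with plain library totals (-0.09, adjusted p = 0.233), with the replicate block (adjusted p = 0.0523), with limma on FPKM, and without shNC replicate 2 or shSNHG1#2 replicate 1 or 2 (adjusted p = 0.0853 to 0.102).

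Genes of mitosis, which are expressed later in the cycle, were higher as well. Of 20, 19 were higher with shSNHG1#1 and 20 with shSNHG1#2, with median log2 fold changes of 0.66 and 0.52, and their summed FPKM was 326 to 330 in shNC, 500 to 509 with shSNHG1#1 and 466 to 479 with shSNHG1#2. CDK1, the mitotic kinase, moved by 0.73 and 0.61, KIF23, a motor of cytokinesis, by 0.72 and 0.61 and AURKA, a spindle kinase, by 0.71 and 0.57. In bulk RNA, more cells in a phase of the cycle and more RNA per cell cannot be told apart, and the part of cell cycle composition in the changes of the replication genes was not tested.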

How the data were processed

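RNA was measured in 9 libraries, 3 for each of shNC, shSNHG1#1 and shSNHG1#2. Per the file headers, the deposited table gives for each of 27407 features a read count per library, and the values show these to be estimated counts, since they are not whole. A second value per library has a header that names no unit; the deposited values behave as FPKM, with implied transcript lengths of a plausible size, and are treated as such. Per the submitters' processing notes, RSEM 1.2.12, HISAT2 2.0.4, DESeq2 1.4.5 and Bowtie2 2.2.5 were used, in roles that are not given. Build, annotation and strandedness of the counting are likewise not given in the sources used here.

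Estimated counts were rounded to whole numbers, 18767 features passed filterByExpr on the 3 groups, and edgeR 4.0.16 (R 4.3.3) was fitted to all 9 libraries with TMM factors and the group as the only term. Quasi-likelihood F tests were adjusted by Benjamini-Hochberg over all tested features, with a threshold of 0.05. Groups were called free of overlap on counts divided by TMM-scaled library totals. Limma 3.58.1 on log2(FPKM + 0.1) and log2(FPKM + 1), DESeq2 1.42.0, other scalings, no filter, fits of only the groups compared and leaving out each library were alternatives; library totals without the top unnamed feature were added after seeing the data. The tests were checked on simulated data. Few genes were changed there, as many up as down, so that check does not bear on the scaling.

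The member genes and all gene lists were chosen with earlier results of these data known, so counts over lists are descriptions. By rule, per-library values are given for the members that changed most and least on average in each role group and for every member lower or not passing against shNC; of each other list up to 4 genes with the smallest p in a comparison and those that passed against the direction of most of their list are named. An item that this rule would name is not reported here. Promoters were chosen as the top 3 and bottom 2 members by signed mean change that had a RefSeq entry on a chromosome that could be shown, and bases within annotated exons, the whole window for FEN1, were then left out. GENCODE v29 served for exon overlaps. Libraries with the same replicate number did not deviate together: the correlations of their deviations from the group means ran from -0.061 to 0.024 over 9 pairs, so the numbers were not taken as pairs. No libraries were duplicates (chi-square per degree of freedom between replicates 3.13 to 6.29).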

Additional observations from a re-analysis of the deposited data

Results flagged for a closer look

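No replication gene of the 42 differed between the hairpins by the edgeR test, but 5 genes of the lists of fork, licensing, nucleotide and mitosis genes did, all lower with shSNHG1#2 than with shSNHG1#1. POLE4, a small subunit of polymerase epsilon, had a log2 difference of -0.337 between the hairpins (edgeR adjusted p = 0.0441), with levels of 12.6 ± 0.68 FPKM in shNC, 14.5 ± 1.11 with shSNHG1#1 and 11.8 ± 0.60 with shSNHG1#2 (SD, n = 3). PCLAF, a protein that binds PCNA, had -0.193 (edgeR adjusted p = 0.0144) and TOP2A, the topoisomerase that untangles replicated DNA, had -0.162 (edgeR adjusted p = 0.0393). CAD, of pyrimidine synthesis, had -0.126 (edgeR adjusted p = 0.0268) and BIRC5, of the chromosomal passenger complex, had -0.300 (edgeR adjusted p = 0.00225). POLE4 passed against shNC with neither hairpin, PCLAF passed with shSNHG1#1 only, and TOP2A, CAD and BIRC5 were higher than in shNC with each. Among the cell type markers, KRT19 was higher with shSNHG1#2 than with shSNHG1#1 (0.206, edgeR adjusted p = 0.0386) and PTPRC, which was below 1 FPKM in all 9 libraries, was lower (-2.397, edgeR adjusted p = 0.0206). Of the 3 fork proteins named, 0 to 1 passed when any 1 library was left out.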

How the results depend on the processing

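Of 756 single values of the 42 genes in each comparison with shNC (18 alternatives), 751 with shSNHG1#1 and 745 with shSNHG1#2 kept their side of the threshold. Of the called values 0 changed sign, while the sign of values not called was not followed. The count of members higher was 36 to 37 in each comparison on leaving out 1 library. Members lower with shSNHG1#1 went from 1 to 0 with library totals without the top unnamed feature. Members lower with shSNHG1#2 were 0 to 1 on leaving out 1 library (1 without shNC replicate 3) and 1, ORC4, with limma on log2(FPKM + 0.1) and log2(FPKM + 1) and with DESeq2. The median log2 fold change of members with shSNHG1#1 was 0.745 with totals without the top unnamed feature and 0.680 with limma on log2(FPKM + 0.1). With shSNHG1#2 it was 0.746 and 0.674 in those settings and 0.665 with library totals alone.

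Over all features, totals without the top unnamed feature gave 2850 lower with shSNHG1#1, and 6744 higher and 2548 lower with shSNHG1#2. Between the hairpins, leaving out 1 library gave 240 to 342 features higher and 57 to 198 lower (240 and 57 without shSNHG1#2 replicate 2), DESeq2 gave 602 and 368, and limma on log2(FPKM + 0.1) and log2(FPKM + 1) gave 99 and 100 lower. Using only the 2 groups compared gave 110 lower. Limma in each form called 1 member higher between the hairpins, ORC3.

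Among the 34 other fork proteins, those lower with shSNHG1#1 were 0 with library totals alone and with totals without the top unnamed feature, and 0 to 1 on leaving out 1 library. Those lower with shSNHG1#2 were 0 with the same totals and with limma in each form, 2 with DESeq2 and 0 to 2 on leaving out 1 library (2 without shNC replicate 2 or shSNHG1#1 replicate 3). Those lower between the hairpins were 3, but 1 with library totals alone, with only the 2 groups compared and with limma in each form, and 0 to 1 on leaving out 1 library. The cause of these moves was not tested.

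The replicate numbers were not taken as pairs, although the labels do not exclude that libraries of the same number were prepared together. With the replicate block, 37 members were higher and 1 lower with shSNHG1#1 and 36 were higher and 0 lower with shSNHG1#2, as without it, while between the hairpins 137 features in place of 211, and 1 fork protein in place of 3, were lower. Replicates of MCM6 were furthest apart among the members, by up to 1.94 times in FPKM. The labels give 3 libraries a group and do not say what they share.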
